A study of Mus musculus with 6 samples.

Results

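The miRNAs described here are the 7 striated muscle miRNAs, or myomiRs, on a mouse miRNA array of 599 probes: mmu-miR-1, mmu-miR-133a, mmu-miR-133b, mmu-miR-206, mmu-miR-208a, mmu-miR-208b and mmu-miR-499. They were chosen by name, and all 7 names were present in each of the 6 spot files and in the deposited series table. Each was spotted 5 times per array. RNA came from arteriolar smooth muscle cells of mouse kidney at passage 7, a primary line on a mixed 129Sv/C57Bl6 background that descends from cells of the renin lineage. The 3 forskolin samples were treated for 24 h with 10 µM forskolin, which activates adenylyl cyclase, and 100 µM IBMX, which blocks the breakdown of cyclic AMP, and were given 10 µM forskolin once more 30 min before harvest. The 3 control samples were untreated, with no vehicle named. The cultures were separate by the design text, and all 6 came from 1 cell line, so the spread between samples is that of cultures and arrays and not of animals.

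MyomiRs are a small set of miRNAs that skeletal and cardiac muscle express at high levels under the control of muscle transcription factors such as MyoD, MEF2 and SRF. miR-1 and miR-133a come from shared precursor transcripts in heart and skeletal muscle. miR-206 and miR-133b are encoded together and are best known from skeletal muscle, where miR-206 promotes differentiation and regeneration. miR-208a, miR-208b and miR-499 sit in introns of myosin heavy chain genes and take part in the control of myosin isoforms. Smooth muscle is characterised instead by miR-143 and miR-145.

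The mature sequences show which of these miRNAs can be told apart on an array, and they are printed for the 5 members that matched RefSeq entries letter for letter (RefSeq, GRCm38.p6), with the seed, bases 2 to 8, in capitals.
miR-206: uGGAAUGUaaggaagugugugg
miR-133b: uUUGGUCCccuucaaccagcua
miR-208a: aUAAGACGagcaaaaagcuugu
miR-208b: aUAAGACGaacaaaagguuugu
miR-499: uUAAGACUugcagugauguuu

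The array targets fell into 4 seed groups. The seed of miR-206 was shared with miR-1 alone among the 599 probes, that of miR-133b with miR-133a alone, and that of miR-208a with miR-208b alone, while no other probe shared the seed of miR-499. Outside the seed the members of a group were unequally close. The targets of miR-133a and miR-133b differed at 1 of 22 positions, those of miR-208a and miR-208b at 3, and those of miR-1 and miR-206 at 4. A probe for miR-133b may therefore hybridise to miR-133a and the reverse. Aligned from their first bases without gaps, the probe target nearest to miR-206 was miR-1, and the next nearest, miR-185, differed at 8 positions. By longest shared run of bases miR-1 came first with 10, miR-467h had 9, and miR-574-5p and miR-669c had 8. Of these miR-574-5p and miR-669c were detected in all 6 samples, and whether they contributed to the miR-206 signal was not tested.

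In the RefSeq annotation the hairpins of miR-206 and miR-133b lie on the plus strand of chromosome 1, 3686 bases apart, and both fall within the span of Lincmd1, a long non-coding RNA gene. Mature miR-206 is at chr1:20679055-20679076 and mature miR-133b at chr1:20682834-20682855. miR-208a (chr14:54949072-54949093, minus strand) lies within Myh6 and miR-208b (chr14:54975710-54975731, minus strand) within Myh7, the genes of the alpha and beta cardiac myosin heavy chains. miR-208b also lies within the span of the long non-coding RNA gene Gm31251. miR-499 (chr2:155622893-155622913, plus strand) lies within Myh7b, a further myosin heavy chain gene.

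Presence was read on each array against its own empty spots. There were 669 empty spots per array, and detection required a 5-spot average above a limit set at the empty-spot mean plus 3 standard deviations (SD) of those empty spots. The 3 Cy3 samples (control 1, control 3 and forskolin 2) had empty means of 131.2 to 200.1 intensity units, and the 3 Cy5 samples (control 2, forskolin 1 and forskolin 3) had empty means of 31.6 to 34.9. Between 162 and 225 of the 599 probes were detected on each array, except on forskolin 2, where 585 were. With 3 arrays per group, precision is low throughout. An array here means the spots of 1 sample read in its dye. Each same-numbered control and forskolin pair held 1 Cy3 and 1 Cy5 sample. Neither the labels nor the headers say whether such a pair shared a chip, so the arrays may not be independent of each other.

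By probe signal over the empty spots, miR-206 was detected in control and forskolin samples alike, the only member detected in all 6 samples. It was 1 of 7, beside 25.2% of all 599 probes. The mean of its spots was 584.5 against an empty mean of 131.2 in control 1, 169.0 against 31.6 in control 2, and 795.5 against 200.1 in control 3. In the forskolin samples it was 241.2 against 32.6, 733.3 against 192.1 and 483.5 against 34.9, in the order of replicates 1 to 3. The probe thus stood 3.82 to 13.8 times above the empty mean, with the 2 groups overlapping.

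Expressed in SDs of the empty spots, the miR-206 signal over background was 31.7, 74.2 and 41.6 in controls 1 to 3 and 45.8, 76.5 and 91.1 in forskolin 1 to 3. All 5 spots exceeded the detection limit on every array, 30 of 30 in all. The spots agreed closely, with a coefficient of variation of 2.50% to 10.0%. Control 1 had the lowest value and forskolin 3 the highest, and the groups overlapped.

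**Figure D1:**
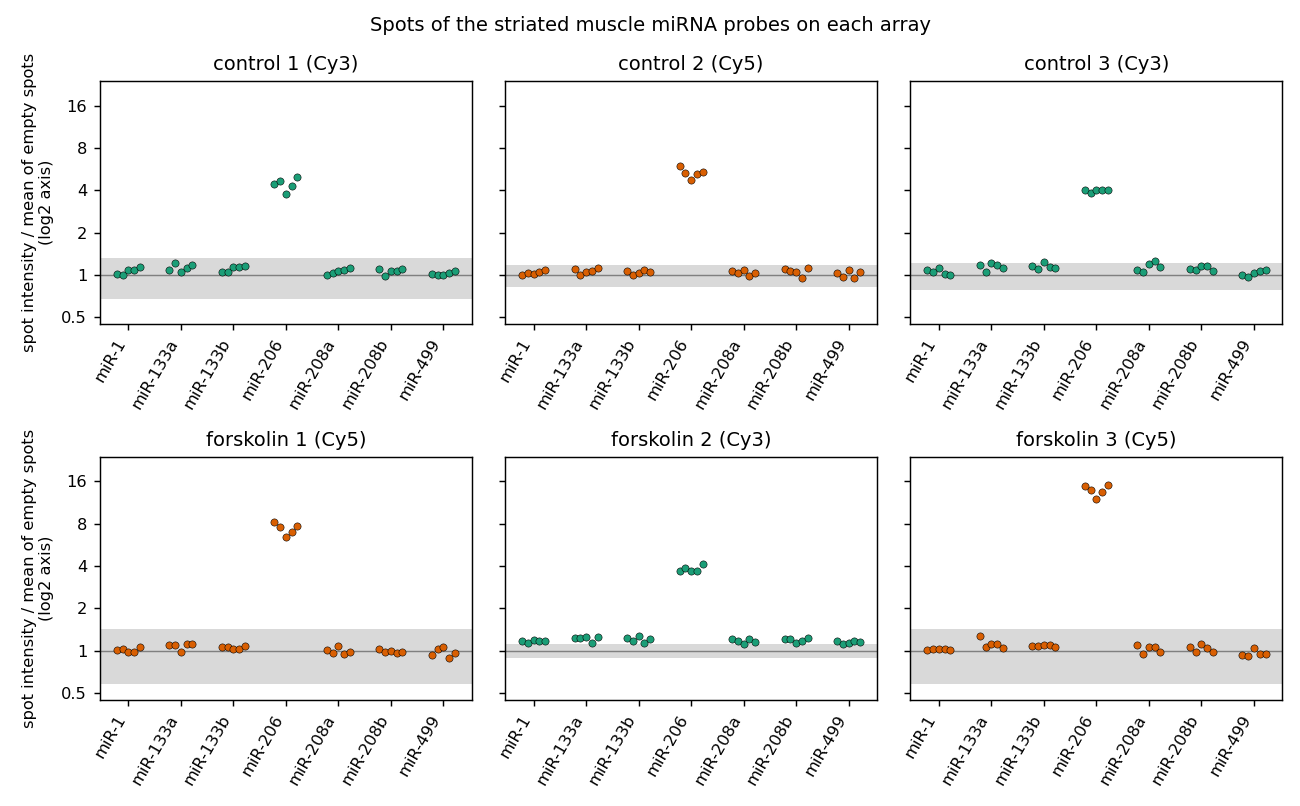
Spot intensity divided by the mean of the empty spots (log2 axis) for the 5 spots of each member on each array, Cy3 in green and Cy5 in orange. The grey band is the empty mean plus and minus 3 SD of the empty spots, and miR-206 lies above it on all 6 arrays while the other members lie in it except for 3 spots on control 3 and all 30 on forskolin 2, which lie just above it.

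miR-133b, encoded beside miR-206 within Lincmd1, did not share its signal. Its spot means were 145.4, 33.2 and 230.2 in controls 1 to 3, and 34.3, 231.9 and 38.0 in forskolin 1 to 3. These were 1.11, 1.05 and 1.15 times the empty mean in controls and 1.05, 1.21 and 1.09 times in forskolin samples. On 5 arrays miR-133b was 0.38 to 2.11 SD over the empty spots, below the limit, and only forskolin 2 passed, at 5.63 SD.

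miR-1, the seed partner of miR-206 and among the most abundant miRNAs of the heart, stayed below the limit in all 3 controls. It stood 0.60, 0.70 and 0.81 SD over the empty spots in controls 1 to 3, and 0.11, 4.47 and 0.14 SD in forskolin 1 to 3. On the 6 arrays it was therefore at 1.01 to 1.16 times the empty mean, and no array had it above the median of the 599 probes. The probes for miR-1 and miR-206, whose targets differ at 4 positions, thus gave different detection calls on 5 of the 6 arrays.

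miR-133a, which restrains proliferation in heart and smooth muscle, gave 1.20, 1.15 and 2.11 SD in controls 1 to 3 and 0.59, 5.96 and 0.89 SD in forskolin 1 to 3. Only the forskolin 2 value passed the limit. In control 3 a single one of its 5 spots was over the limit, as was 1 spot each of miR-133b and miR-208a. The passenger strand miR-133a* was at 0.32 to 1.21 SD on 5 arrays and at 3.78 SD on forskolin 2, so neither strand of that hairpin was seen beyond that array.

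The miRNAs of the myosin genes were below the limit in every control. miR-208a stood at 0.60, 0.74 and 2.10 SD in controls 1 to 3 and at -0.02, 4.71 and 0.23 SD in forskolin 1 to 3. miR-208b stood at 0.62, 1.02 and 1.62 SD in controls and at -0.06, 5.25 and 0.27 SD in forskolin samples. miR-499 gave 0.24, 0.35 and 0.41 SD in controls and -0.17, 4.08 and -0.28 SD in forskolin samples. Its spot means were 134.6, 32.3 and 206.0 in controls 1 to 3, or 1.03, 1.02 and 1.03 times the empty mean. Apart from forskolin 2, no sample of either group had any of these 3 above the limit.

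Together, the 6 members other than miR-206 were detected in 0 of 18 control values and in 6 of 18 forskolin values, and the 6 were those of forskolin 2. In that sample 97.7% of all 599 probes were detected. Of the 150 spots of these members on the other 5 arrays, 3 lay over the limit, against 30 of 30 on forskolin 2. All 6 were detected in no sample other than forskolin 2, as were 59.4% of all probes. With 25.2% of probes detected in all 3 controls and 27.9% in all 3 forskolin samples, miR-206 was again the 1 member to meet either condition.

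**Figure D2:**
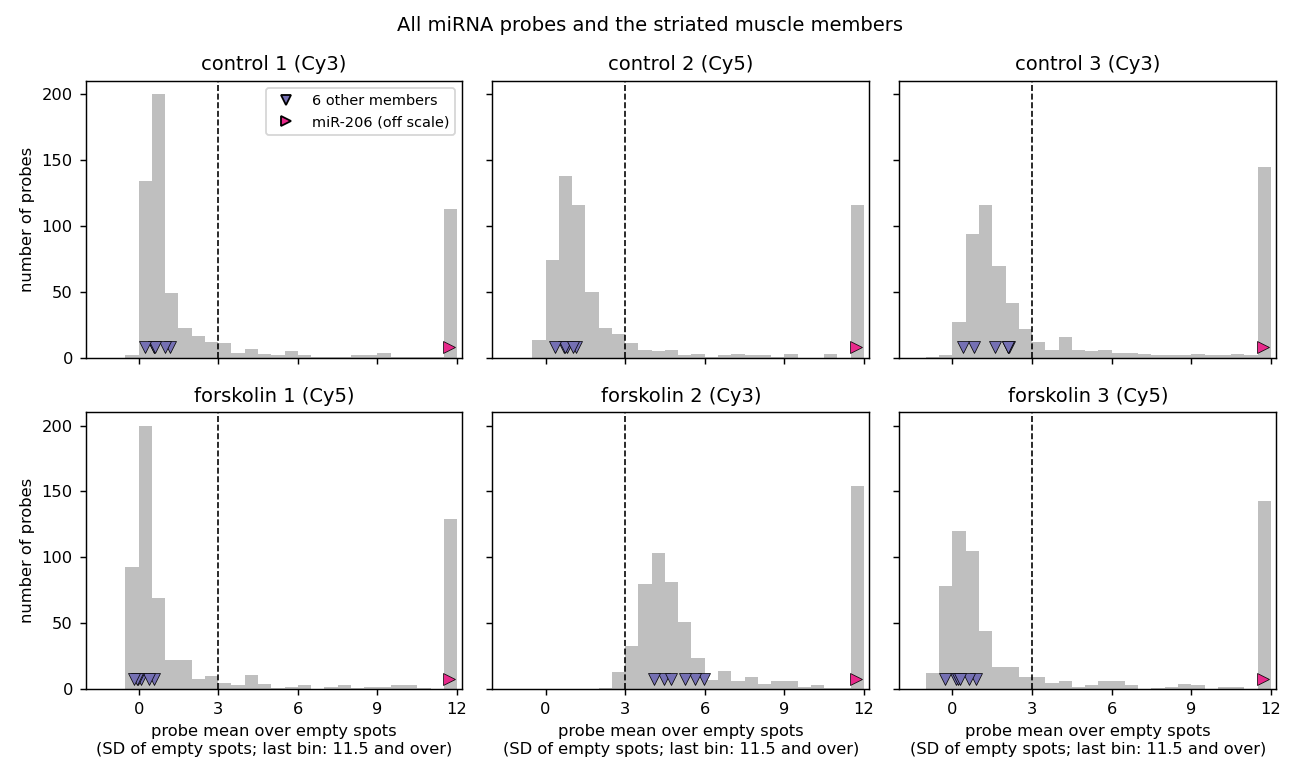
Histograms of the probe means of all 599 miRNAs over the empty spots, in SD of the empty spots, for each array, with the dashed line at the limit of 3 SD and the last bin holding all larger values. Triangles mark the members: the 6 other than miR-206 lie within the main body of probes on each array, and on forskolin 2 585 of the 599 probes are beyond the limit.

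The whole distribution on forskolin 2 stood apart. Its median probe was 4.91 SD over the empty spots, against 0.54 to 1.92 SD on the other 5 arrays, and its empty spots had an SD of 7.07, against 14.3 on both other Cy3 arrays. The 6 members were at 4.08 to 5.96 SD there, on both sides of that median. When the background was taken from the spots of the miRNA probes at or below each array's median, 183 probes were detected on forskolin 2. This reference is itself defined by low signal. Of the 36 values of these members 9 lay above the array's median, and the others were part of the reference. Those others could hardly pass it, so their failure to pass says little about their presence. With that reference none of the 6 members passed on any array, at -0.87 to 1.58 SD of it, while miR-206 was at 45.6 to 154.8 SD and passed on all 6.

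**Figure D3:**
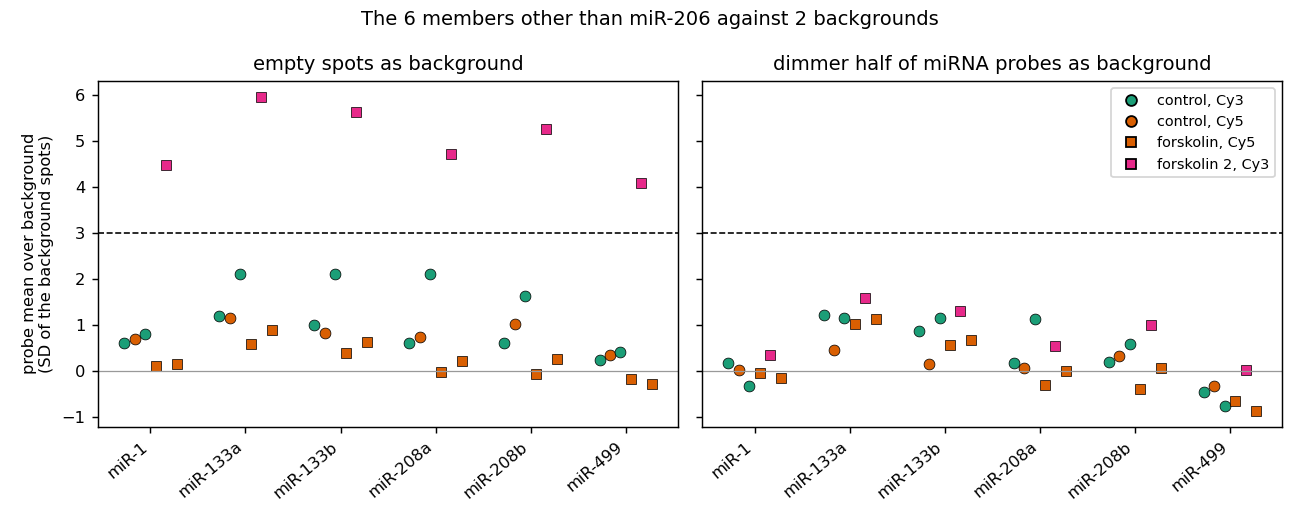
Probe means of the 6 members other than miR-206 in SD over the empty spots (left) and over the spots of miRNA probes at or below the array's median (right), with the dashed line at 3 SD, circles for controls, squares for forskolin samples and forskolin 2 in pink. Only forskolin 2 exceeds the line on the left, at 4.08 to 5.96 SD, and no value does on the right. Most values on the right come from probes that are part of that background.

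The deposited series table, which holds 1 intensity per miRNA and sample, was also high for miR-206 against its column medians and low for the others. It listed miR-206 at 360, 670 and 205 in controls 1 to 3 and at 234, 351 and 453 in forskolin 1 to 3. The 6 other members were listed at 1 to 17, on columns whose medians over all miRNAs were 8 to 11. Their highest values, 17 for both miR-133a and miR-133b, were those of forskolin 2.

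The second question was whether miR-206 differed after forskolin and IBMX. It did not pass the test, and the groups overlapped. On the quantile-normalized scale its log2 intensity was 8.83, 9.41 and 8.26 in controls 1 to 3 and 8.35, 8.72 and 9.14 in forskolin 1 to 3. The means were 8.83 ± 0.58 and 8.74 ± 0.39 (SD, n = 3 each). Both the highest and the lowest of the 6 values were controls.

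In limma, fitted with treatment and dye as terms, the log2 fold change of miR-206 was -0.24 with a standard error of 0.34 and an adjusted p of 0.793 over the 167 probes detected in all samples of at least 1 group. The 95% interval ran from -1.04 to 0.56, so changes of either sign within it could not be told from no difference. Of the 167 tested probes 10 were called at an adjusted p of 0.05, or 5.99%, and miR-206, the 1 member tested, was not among them. With the replicate number as a block 30 were called, miR-206 again not among them (adjusted p = 0.766), and without control 2 or without forskolin 2 the count was 0 (20 and 22 at an unadjusted p below 0.05), in fits where the treatment difference then rests on a single sample of one group.

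Same-numbered samples disagreed on miR-206. Forskolin minus control was -0.48 for number 1, -0.68 for number 2 and 0.88 for number 3 on the log2 scale. The dyes disagreed as well: among Cy3 samples forskolin 2 was 0.18 above the mean of controls 1 and 3, and among Cy5 samples the mean of forskolin 1 and 3 was 0.66 below control 2. Each of these within-dye differences rests on a single sample on one side. They equal the limma fits without control 2 (adjusted p = 0.941) and without forskolin 2 (adjusted p = 0.619), which assume that the lone sample varies like the others. The fitted value of -0.24 is the mean of the 2.

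**Figure D4:**
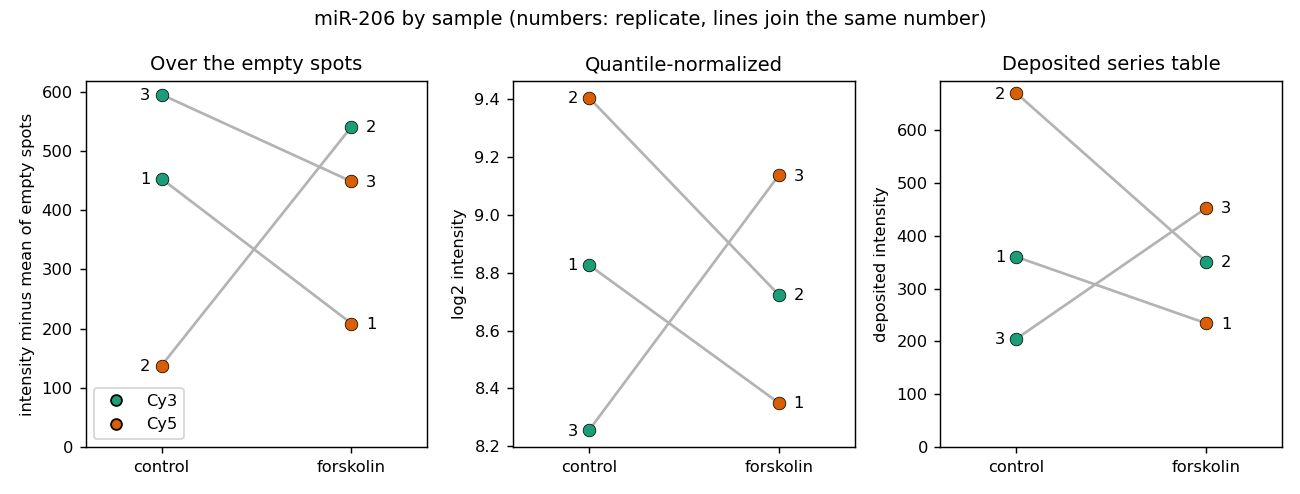
miR-206 in each sample as intensity over the empty spots, as quantile-normalized log2 intensity and as the deposited intensity, Cy3 in green and Cy5 in orange, with lines joining samples of the same replicate number. The groups overlap in all 3 panels, and after normalization the lines fall for numbers 1 and 2 and rise for number 3.

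The order of the samples depended on the scaling. By intensity over the empty spots, without scaling between arrays, control 2 was the lowest at 137.4 and control 3 the highest at 595.5, with control 1 at 453.3 and forskolin samples at 208.5, 541.1 and 448.6 between them. After quantile normalization, and in the deposited table, control 2 was the highest and control 3 the lowest. The authors' scaling of control 2 was large: over the tested probes its deposited values were a median of 4.20 times the intensity over the empty spots, against 0.37 times for control 3. In the deposited table, with values below 16 set to 16, the fitted log2 fold change of miR-206 was -0.34 with a standard error of 0.49 and a limma adjusted p of 0.753.

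**Figure D5:**
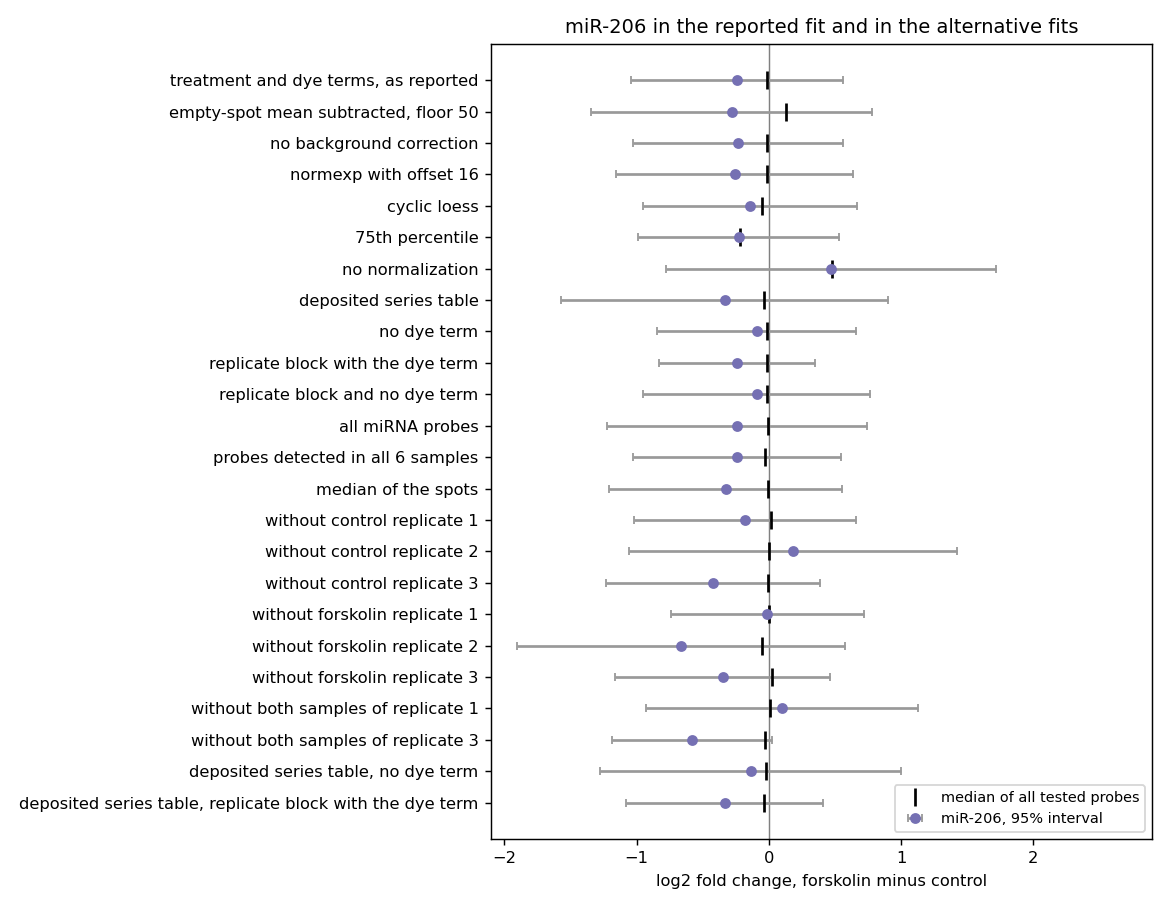
Log2 fold change of miR-206 (points, with 95% intervals) in the reported fit and in each alternative fit, with the median of all tested probes as a black tick. All intervals include 0, and the points run from -0.66 to 0.47.

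For the other 6 members no fold change is given, since they were not well above background in both groups. Their normalized log2 intensities lay at the foot of the scale, with group means of 6.17 for miR-499 to 6.33 for miR-133a in controls and 6.19 to 6.35 for the same probes in forskolin samples. The samples of a group were within an SD of 0.08 of each other for all 6, values at the background. An offset of 50 added in background correction, and the normalization, limit the spread of such low values. The small SD is therefore no measure of agreement between samples. A treatment difference below the detection limit could not have been seen for miR-1, miR-133a, miR-133b, miR-208a, miR-208b or miR-499.

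miR-206 was next compared with miRNAs known from muscle but not restricted to striated muscle. The list was chosen with earlier results of these data known. Of 29 such names 28 were on the array and 24 were detected in all 6 samples, beside 25.2% of all 599 probes. Among the 24 were miR-143, miR-145 and miR-145*, the 3 smooth muscle markers. In the same limma fit 0 of these 24 rose and 1 fell, with a median log2 fold change of -0.11 against -0.01 for all 167 probes, and with the replicate number as a block 2 rose and 2 fell. Over all 167 probes 4 rose and 6 fell, and with the block 18 rose and 12 fell. The 1 that fell was miR-222, a miRNA of smooth muscle proliferation, from 12.19 to 11.05 (log2 fold change -1.10, adjusted p = 0.0465, and 0.00267 with the block). Its partner miR-221 had -0.94 (adjusted p = 0.0798, block 0.0147), miR-181b 1.02 (0.0714, block 0.00716) and miR-322 0.88 (0.179, block 0.0262). miR-30a and miR-145 had 0.54 and -0.40, both at an adjusted p of 0.390.

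Markers of other cell types were read against the 59.4% of all probes detected in no sample other than forskolin 2. Of 8 neural probes 7 met that condition, as did 5 of 7 blood probes, 6 of 9 epithelial, both endothelial and all 3 pancreatic ones. Of the 3 remaining epithelial probes, miR-192 and miR-194 were each detected in 1 control and all 3 forskolin samples. The third, miR-205, was detected in 1 control and 2 forskolin samples, and the 1 liver probe in 1 control and 1 forskolin sample. These forskolin counts include forskolin 2. The exceptions detected in all 6 samples were miR-128, which is enriched in brain and also found in muscle, and miR-486, which is abundant in red cells and also enriched in muscle. Of the blood list, miR-142-3p was detected in control 2, at 4.67 SD, and in the same-numbered forskolin 2, at 6.82 SD. The 5 blood probes detected in forskolin 2 alone included the red cell markers miR-451 and miR-144. Whether another cell type contributed to the miR-206 signal was not tested.

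Among the tested probes, those whose normalized values followed miR-206 most closely over the 6 samples were miR-1195 (Pearson r 0.907, Spearman rho 0.971), miR-15b (0.905 and 0.899) and miR-709 (0.794 and 0.845). These are descriptions over 6 samples, and the probes share arrays, dyes and normalization.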

How the data were processed

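MicroRNA of 6 samples was hybridised by a service provider (LC Sciences) after tailing and tagging, with 1 dye per sample, Cy3 or Cy5, per the labels. Per the file headers, the deposited spot files hold the mean intensity of each spot in 1 dye, and empty spots read well above 0, so background is still in them. The deposited series table holds 1 whole-number intensity per miRNA and sample, whose log2 values correlated at 0.996 or above with spot values minus empty spots over tested probes; its scaling between samples is not given in the sources used here. Scanner and software are likewise not given.

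After normexp correction (offset 50), the 5 spots were averaged and their log2 values quantile-normalized over 599 probes. The 167 probes detected in all samples of a group were fitted in limma 3.58.1 (R 4.3.3) with treatment and dye, Benjamini-Hochberg adjusted, at a threshold of 0.05, two-sided. Detection and fit were tested on simulated data, the fit with each probe's residual spread in these samples. The pass mark for the fit was lowered after its outcome was seen. Simulated absent probes had the mean and SD of the empty spots, whereas the median probe on forskolin 2 was 4.91 SD over them. Simulated samples were drawn independently, without the pairing described below, so these simulations do not cover those features of the data. Groups and replicate numbers came from the titles. Deviations from group means correlated between same-numbered samples at 0.397, 0.473 and 0.359, and between differently numbered ones at -0.381 to 0.0007. The numbers were therefore taken to pair the samples, on the data and not the labels. The reported fit has no term for this pairing, which only the alternative fits with the replicate block hold. The members and lists were chosen with earlier results of these data known. Named probes are all members, the other strand of their hairpins on the array, of the other muscle list the 6 smallest p-values, markers detected in all 6 samples and the 3 probes most like miR-206; other names were chosen after their values were seen.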

Additional observations from a re-analysis of the deposited data

How the results depend on the processing

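miR-206 was detected on all 6 arrays under each of the 8 alternative detection rules, and was the 1 member to be so. The number of detections among the 42 member and array values was 12. It was 6, all of them miR-206, with the miRNA probes at or below each array's median as background, which holds most values of the other members. It was 5 without forskolin replicate 2 (5 to 11 over the samples left out in turn). Other alternatives gave 9 to 15: a limit of 2 SD added miR-133a, miR-133b and miR-208a in control 3, and the 16 background spots named BKG0, a reference chosen after seeing the data, added these and miR-133a in forskolin 3 and removed 3 of the 6 in forskolin 2.

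The log2 fold change of miR-206 missed the threshold in each of 21 alternative fits (limma adjusted p 0.250 to 0.981). It was negative in 18, and positive with no normalization (0.47, where the median of all tested probes was 0.48), without control replicate 2 (0.18) and without both samples of replicate 1 (0.10). Leaving out 1 sample gave -0.66 to 0.18. With the replicate block and the dye term it stayed at -0.24 (adjusted p = 0.766); the median of all tested probes was -0.22 at the 75th percentile and 0.13 with empty spots subtracted. With the deposited table it was -0.14 without the dye term and -0.34 with the block, both added after seeing the data.

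The count of 10 called probes was 5 with empty spots subtracted, with no normalization or with spot medians, 6 with the deposited table, 18 without the dye term, 30 with the replicate block and dye term, 24 with the block alone and 1 with all 599 probes tested. Leaving out 1 sample gave 0 to 12: none without control 2 (where 20 had p below 0.05 before adjustment) or forskolin 2 (22 such probes), fits in which 1 dye holds a single treatment and the difference rests on a lone sample, and 3 without control 3. Dropping the replicate 1 pair gave 0 (17 such probes), and dropping the replicate 3 pair gave 24. Without the replicate 2 pair no fit was possible, since the controls left are all Cy3 and the forskolin samples all Cy5. The cause of the other differences was not tested. Signal over background limits what can be said of the 6 other members.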

Other observations

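The probe miR-1-2-as, antisense to miR-1 by its name and outside the chosen members, was named after its values were seen. It stood 0.17 to 1.12 SD over the empty spots on 5 arrays and at 4.06 SD on forskolin 2. The third of the 5 miR-206 spots, in order of array row, was the dimmest on 5 of 6 arrays.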
